A study of Mus musculus with 4 samples.

Results

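The genes described here are the nuclear genes of oxidative phosphorylation. They were chosen by symbol as the genes listed in all 3 library tables whose name starts with Nduf, Uqcr, Cox4, Cox5, Cox6, Cox7, Cox8 or Atp5, or is Sdha, Sdhb, Sdhc or Sdhd. This gave 86 of the 11049 listed genes, with 37 subunits of complex I, 8 of its assembly factors, 4 subunits of complex II, 8 of complex III, 12 of complex IV and 17 of complex V. Ndufa4 was counted in complex IV. A further 3 symbols that fit the names (Cox6b2, Cox7a1 and Ndufa4l2) were missing from at least 1 of the 3 tables and were not used. All 86 genes had UMIs (single molecules counted by their barcode), and no value of any of them was used to choose the cells.

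The study compared 2 mouse models of hypertension in C57BL/6J mice of 10 to 14 weeks. The groups were angiotensin II-induced hypertension (A2 HTN), its saline control (A2 Ctrl), salt-sensitive hypertension (SS HTN) and its control on normal diet (SS Ctrl). The kidneys of all mice of a group were pooled, so each group is 1 library and has no replicate animal. Cells from every group were selected first for CD31, a protein of the endothelial surface, and then for podoplanin, which lymphatic vessels and podocytes carry. The labels name no dose, length of treatment or sex.

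Oxidative phosphorylation makes most of the ATP of a cell from electrons that nutrients give up. Complex I takes electrons from NADH and complex II from succinate, complex III passes them on through cytochrome c, and complex IV gives them to oxygen. Complexes I, III and IV pump protons, and complex V, the ATP synthase, makes ATP from the return flow. The mitochondrial genome encodes a few core subunits of each complex except complex II, and the nucleus encodes all the others. In the kidney the tubules depend heavily on this pathway, while endothelial cells are known for their reliance on glycolysis. No mitochondrial gene is among the genes analysed here, so only the nuclear side can be described.

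The promoters of some of these genes share binding motifs, so 3 that carry them are shown. RefSeq promoters (GRCm38.p6, 250 bases before to 50 after the start of a transcript) matched 71 of the 86 genes. Shown 5′ to 3′ on the gene's strand are the 250 bases before the start of Sdhb at chr4:140961021-140961270 (plus strand), of Atp5g2 at chr15:102671048-102671297 (minus strand) and of Cox6a1 at chr5:115348959-115349208 (minus strand). Capitals mark the core of the NRF1 motif (GCGCATGC) or the ETS motif bound by GABP (CCGGAAG), on either strand.
Sdhb: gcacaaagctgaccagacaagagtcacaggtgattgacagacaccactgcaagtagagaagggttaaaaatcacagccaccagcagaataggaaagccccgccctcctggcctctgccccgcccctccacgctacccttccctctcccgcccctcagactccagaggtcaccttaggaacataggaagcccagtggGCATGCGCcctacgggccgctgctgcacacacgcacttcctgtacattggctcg
Atp5g2: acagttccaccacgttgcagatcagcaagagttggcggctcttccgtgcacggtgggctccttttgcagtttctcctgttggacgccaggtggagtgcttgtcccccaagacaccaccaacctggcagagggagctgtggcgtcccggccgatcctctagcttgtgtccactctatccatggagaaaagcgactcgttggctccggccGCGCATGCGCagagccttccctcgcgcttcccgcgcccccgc
Cox6a1: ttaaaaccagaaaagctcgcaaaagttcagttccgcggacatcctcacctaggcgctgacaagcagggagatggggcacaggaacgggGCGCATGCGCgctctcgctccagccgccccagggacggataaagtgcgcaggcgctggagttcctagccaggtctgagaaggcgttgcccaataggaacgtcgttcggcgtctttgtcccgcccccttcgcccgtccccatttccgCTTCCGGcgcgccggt
NRF1 and GABP are transcription factors known for their sites in genes of the respiratory chain. The NRF1 core was found within 300 bases in 16.9% of the 71 genes, against 6.19% of the 8763 listed genes with a RefSeq promoter and 3.05% of all 27025 genes in the RefSeq table. For the ETS core the shares were 26.8%, 21.0% and 9.93%, and for the core of YY1 (AAGATGGC), 14.1%, 5.58% and 3.19%. The NRF1 core overlaps its own reverse complement in the longer run of both Atp5g2 and Cox6a1, and each gene was counted once. Any of the 3 cores was found in 34 of the 71 genes (47.9%). The shares were 29.7% of the listed genes and 14.9% of all genes in the RefSeq table. These 34 and the other 37 had median log2 ratios of −1.11 and −1.10 between other and endothelial cells of the A2 HTN library, a comparison given in full later, so the 2 groups of promoters differed little in this measure. A match of letters is a description and shows no binding.

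The libraries held 2837 cells for A2 HTN, 3284 for SS HTN, and 2406 and 2008 for the 2 libraries of the control table, called control library 1 and 2 because the files do not say which model each belongs to. Their medians were 1795, 1785.5, 973 and 557 UMIs per cell. No more than 2 barcodes were shared between any 2 libraries. Cells were called endothelial when Pecam1, Cdh5, Kdr and Tie1 together had at least 3 UMIs and at least 12 per 10000, and were split by whether they had any UMI of the tubule genes Slc34a1, Lrp2, Slc12a1 and Slc12a3. Endothelial cells without a tubule UMI numbered 675 in A2 HTN, 722 in SS HTN, 5 in control library 1 and 68 in control library 2. Those with one numbered 550, 797, 14 and 58. The remaining 1612, 1765, 2387 and 1882 cells are called other cells. Of the 7 lymphatic markers only Prox1 and Flt4 are among the listed genes, with a summed level of 76.7 to 141 CPM (UMIs scaled to the same total over the listed genes) in endothelial and 31.0 to 42.2 CPM in other cells, so the label of lymphatic endothelium could hardly be checked. In other cells the 10 proximal tubule markers reached 16577 to 18510 CPM, against 307 to 961 CPM in endothelial cells without a tubule UMI. All control values for endothelial cells rest mainly on control library 2, which gave 68 of the 73 control cells without a tubule UMI.

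In endothelial cells without a tubule UMI the 86 genes together made up about the same part of the RNA in A2 HTN and SS HTN, and a somewhat larger one in control library 2. Their summed level was 20034 CPM in A2 HTN, 20237.5 in SS HTN, 18863 in control library 1 (5 cells) and 22412 in control library 2. The 95% Poisson intervals, which cover counting error only, were 19876 to 20194, 20034 to 20443, 16028 to 22056 and 21731 to 23110. Control library 2 stood highest and control library 1, with 157 UMIs of these genes, could not be placed, since 1 UMI there is worth 120 CPM and a count of 0 allows up to 360 CPM. Complex I contributed 32.6% of these UMIs in A2 HTN, more than any other complex. Across the 86 genes the levels of A2 HTN and SS HTN had a Pearson r of 0.98, and those of A2 HTN and control library 2 an r of 0.97, given as a description of genes that share their libraries.

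**Figure D1:**
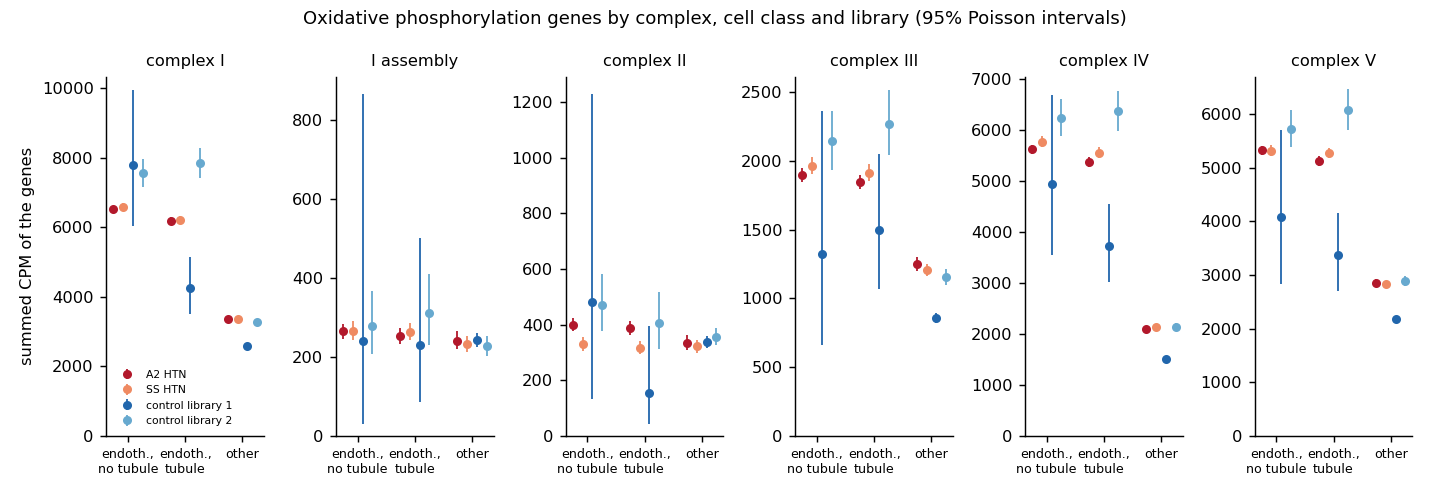
Summed CPM of the genes of each complex (vertical axis, its own scale in each panel, from 0) in the 3 cell classes (horizontal axis), with 1 point per library and 95% Poisson intervals as bars. Complexes I, III, IV and V are lower in other cells than in endothelial cells, while complex II and the assembly factors lie close in all classes.

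In A2 HTN, SS HTN and control library 2 the most abundant single genes belonged to complex IV, cytochrome c oxidase. Cox8a, a small subunit, was at 665 CPM in A2 HTN, 772 in SS HTN, 841 in control library 1 and 806 in control library 2. Cox6c was at 626, 737, 360 and 751 CPM. Cox4i1, a regulatory subunit, was at 703, 646, 481 and 674 CPM. Cox8a and Cox6c were lower and Cox4i1 was higher in A2 HTN than in SS HTN and control library 2. Ndufa4, long assigned to complex I and now counted in complex IV, was at 661 and 676 CPM in the hypertension libraries. The 3′ kit gives 1 UMI per captured molecule, so levels of genes were compared without dividing by length. In complex V the leading genes included Atp5j (coupling factor 6; 495 and 542 CPM in A2 HTN and SS HTN) and Atp5e (the epsilon subunit; 449 and 564 CPM). In complex III they were Uqcrb (404 and 390 CPM) and Uqcrh (the hinge protein; 356 and 393 CPM), and in complex I the accessory subunits Ndufa7 (344 and 341 CPM) and Ndufb9 (293 and 324 CPM). Complex II genes were lower, with Sdha, the flavoprotein that oxidises succinate, at 139 and 113 CPM and Sdhb, the iron-sulfur subunit, at 122 and 115 CPM. The assembly factors were lowest, from 9.22 CPM for Ndufaf1 to 63.2 CPM for Ndufaf8 in A2 HTN.

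The first question was whether either model differs from control in endothelial cells. Both hypertension libraries were slightly lower. The summed level gave a log2 ratio of −0.15 (95% counting interval −0.20 to −0.11) for A2 HTN over the summed control and −0.14 (−0.18 to −0.09) for SS HTN. Of the 86 genes, 61 were lower and 25 higher in A2 HTN, with a median of −0.14 against 0.02 over the 9445 genes tested (20 or more UMIs in the sums compared, which all 86 had), and 56 were lower in SS HTN, with a median of −0.12 against 0.03. Both comparisons use the same control cells, so they are not independent. With 1 library a group there is no test over samples. Control library 2 alone gave −0.16 and −0.15, and control library 1 alone, with its 5 cells, 0.09 and 0.10, so the direction rests on control library 2.

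Few genes passed a 1.5-fold difference. In A2 HTN 2 genes were lower and 3 higher by 1.5 fold or more, where 11% of all genes tested were lower and 15.6% higher. In SS HTN 9 were lower and 2 higher, against 11.8% and 17.9% of all genes. As shares of the 86 genes all 4 counts lie under the background, the 9 lower genes least so. Here and later, the background shares past 1.5 fold were not matched for UMIs. Ratios of genes with few UMIs vary more by counting alone, so these low counts cannot be read as particular to the 86 genes. In complex I the lowest gene in A2 HTN was the accessory subunit Ndufb3, at 191 CPM in A2 HTN, 217 in SS HTN, 360 in control library 1 and 296 in control library 2. Its log2 ratios over control were −0.63 (−1.04 to −0.23) and −0.45 (−0.86 to −0.03), where control library 1 is 3 UMIs in 5 cells. Ndufb4 was lowest in SS HTN at −0.70 (−1.26 to −0.15), from 105 CPM against 175 CPM in control library 2, while A2 HTN lay between at 148 CPM. The highest complex I values over control were 0.30 (−0.52 to 1.29) for Ndufv1, which holds the NADH site, in A2 HTN and 0.24 (−0.33 to 0.88) for Ndufs6 in SS HTN, and both intervals span no difference. Complex I as a whole gave −0.21 (−0.29 to −0.13) in A2 HTN and −0.20 (−0.28 to −0.12) in SS HTN.

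Among the assembly factors Ndufaf2, which works late in building complex I, was the lowest, at −0.69 (−1.46 to 0.07) in A2 HTN and −0.82 (−1.64 to −0.04) in SS HTN. It was at 53.3 CPM in A2 HTN, 48.3 in SS HTN and 82.2 in control library 2. The highest ratios, 1.44 (−0.41 to 7.44) for Ndufaf7 in A2 HTN and 1.31 (−0.60 to 7.30) for Ndufaf6 in SS HTN, rest on 1 control UMI each and tell nothing of direction.

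Complex II, succinate dehydrogenase, was at 399 CPM in A2 HTN, 330 in SS HTN and 471 in control library 2. The log2 ratio over control was −0.24 (−0.55 to 0.08) in A2 HTN and −0.51 (−0.84 to −0.18) in SS HTN. Its lowest gene was Sdhd, a membrane anchor, with 76.4 CPM in A2 HTN, 52.6 in SS HTN, 240 in control library 1 (2 UMIs) and 110 in control library 2 (20 UMIs). Its ratio was −1.06 (−1.81 to −0.39) for SS HTN, but 0.053 when a tubule UMI was called from 16 marker genes rather than 4. The value thus depends on how cells of SS HTN and control are split. Sdhc, the other anchor, was at 62.5, 48.3 and 49.3 CPM in A2 HTN, SS HTN and control library 2, with ratios of 0.37 (−0.55 to 1.56) and 0.03 (−0.95 to 1.21), both spanning no difference.

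Complex III gave −0.15 (−0.30 to −0.00) in A2 HTN and −0.10 (−0.25 to 0.05) in SS HTN, complex IV −0.14 (−0.22 to −0.05) and −0.10 (−0.19 to −0.01), and complex V −0.09 (−0.18 to 0.00) and −0.09 (−0.18 to 0.00). In complex III, Uqcr11 was lowest in A2 HTN at −0.45 (−0.79 to −0.11), with 309 CPM in A2 HTN, 375 in SS HTN and 433 in control library 2. Uqcrfs1, the Rieske iron-sulfur protein, was lowest in SS HTN at −0.85 (−1.74 to −0.02), with 41.3 CPM there against 75.1 in A2 HTN, 82.2 in control library 2 and no UMI in control library 1. In complex IV, Cox7b was lowest in both, at −0.43 (−0.84 to −0.01) and −0.69 (−1.12 to −0.26), and Cox7a2l, which helps join complexes III and IV into supercomplexes, was highest in both, at 0.65 (0.15 to 1.24) and 0.26 (−0.26 to 0.84). Cox7a2l was at 258 CPM in A2 HTN, 195 in SS HTN and 170 in control library 2, with no UMI in control library 1. In complex V, Atp5a1, the alpha subunit, was highest in A2 HTN at 0.58 (0.11 to 1.10), and Atp5e lowest at −0.47 (−0.74 to −0.19). For SS HTN the ends were Atp5g3 at 0.39 (−0.16 to 1.01) and the gamma subunit Atp5c1 at −0.59 (−1.02 to −0.16). Over the 5 cells of control library 1 alone the values of Uqcr11 in A2 HTN and of Uqcrfs1 and Atp5c1 in SS HTN turn positive, so they rest on control library 2.

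The second question was how the models differ from each other, and here counts on both sides were large. Depth was not equal, with a median of 4748 UMIs per endothelial cell without a tubule UMI in A2 HTN and 2325.5 in SS HTN. In endothelial cells with a tubule UMI the medians were 4716.5 and 2386. The part of depth in the gene by gene differences was not tested. A difference between 2 single libraries cannot be told apart from one between their preparations. Over all 86 genes A2 HTN and SS HTN were nearly level, with a log2 ratio of −0.01 (−0.03 to 0.00) for the sum, and 45 genes lower and 41 higher. Beneath this the complexes split. All 4 genes of complex II were higher in A2 HTN, and their sum gave 0.27 (0.14 to 0.42), while complexes I, III, IV and V lay between −0.05 and 0.00. In complex II the log2 ratio was 0.28 (0.05 to 0.54) for Sdha, 0.07 (−0.17 to 0.33) for Sdhb, 0.34 (0.00 to 0.75) for Sdhc and 0.50 (0.19 to 0.89) for Sdhd. These genes span 28027, 17991, 23439 and 7456 bases. By span, the median ratio of the oxidative phosphorylation genes was −0.08 under 5 kb, −0.03 from 5 to 10 kb, 0.07 from 10 to 20 kb and 0.15 over 20 kb. All genes had 0.07, 0.13, 0.09 and −0.08. The part of span in the split between complexes was not tested.

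Only 2 genes were past 1.5 fold, both higher in A2 HTN, and none lower, where 4.74% of the 10021 genes tested were higher and 7.35% lower. Uqcrfs1 (chromosome 13, 30540308 to 30545362, minus strand) was at 75.1 CPM in A2 HTN and 41.3 in SS HTN, a ratio of 0.79 (0.48 to 1.25). Ndufa12 (chromosome 10, 94198720 to 94221443, plus strand), an accessory subunit of complex I that is added late, was at 146 and 89.1 CPM, a ratio of 0.69 (0.46 to 0.98). Atp5b, the catalytic beta subunit of ATP synthase (chromosome 10, 128083273 to 128090391, plus strand), followed with 453 and 309 CPM and 0.54 (0.41 to 0.69). For all 3 the control library 2 level (82.2, 148 and 444 CPM) was near that of A2 HTN and above that of SS HTN.

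The lower end held genes of complexes I, III, IV and V. The ratio was −0.34 (−0.50 to −0.20) for Atp5k, with 268 CPM in A2 HTN and 341 in SS HTN, and −0.33 (−0.45 to −0.21) for Atp5e, with 449 and 564 CPM. Cox7c was at −0.27 (−0.39 to −0.17), Cox6c at −0.23 (−0.34 to −0.13), Cox8a at −0.21 (−0.31 to −0.12) and Uqcr11 at −0.27 (−0.42 to −0.13). In complex I the lowest was Ndufa5 at −0.37 (−0.57 to −0.20). Among assembly factors Ndufaf3 was highest at 0.38 (0.01 to 0.84) and Ndufaf8 lowest at −0.22 (−0.56 to 0.09). The interval lay wholly above 0 for 22 of the 86 genes and wholly below 0 for 15, where the shares over all genes tested were 13.6% and 16.6%. These background shares were not matched for UMIs, and an interval narrows as UMIs rise. The counts thus cannot be read as an excess or a lack against the background.

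Endothelial cells with a tubule UMI are separate cells of the same libraries, and there the gene by gene pattern was similar. The ratio of A2 HTN over SS HTN was 0.64 (0.40 to 0.95) for Ndufa12, 0.64 (0.32 to 1.07) for Uqcrfs1 and 0.50 (0.37 to 0.65) for Atp5b. It was −0.36 (−0.52 to −0.20) for Atp5k and −0.39 (−0.52 to −0.28) for Atp5e. Complex II gave 0.28 (0.14 to 0.43), again with all 4 genes higher. Ndufa5, at 0.14 (−0.06 to 0.34), did not follow. Over the 86 genes the ratios in the 2 sets of cells had a Pearson r of 0.77 and the same sign for 68, and against other cells an r of 0.31 and the same sign for 54. These values describe genes measured in the same 2 libraries. The interval lay above 0 for 14 genes and below 0 for 18 (13.6% and 17.4% of all genes tested, again not matched for UMIs). In both sets it lay above 0 for 13, namely Atp5a1, Atp5b, Atp5c1, Atp5o, Cox4i1, Cox5a, Cox7a2l, Cox7b, Ndufa11, Ndufa12, Ndufs8, Sdha and Uqcrfs1. It lay below 0 in both for 10, namely Atp5e, Atp5g2, Atp5j, Atp5k, Cox6c, Cox7c, Cox8a, Uqcr10, Uqcr11 and Uqcrh. The share of all genes past 0 in both sets was not computed, so these counts cannot be set against a background. Genes of cytosolic ribosomal proteins were at 100296 CPM in A2 HTN and 120302 CPM in SS HTN in cells without a tubule UMI, and at 94945 and 113001 CPM in those with one. Their part in the result was not tested.

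**Figure D2:**
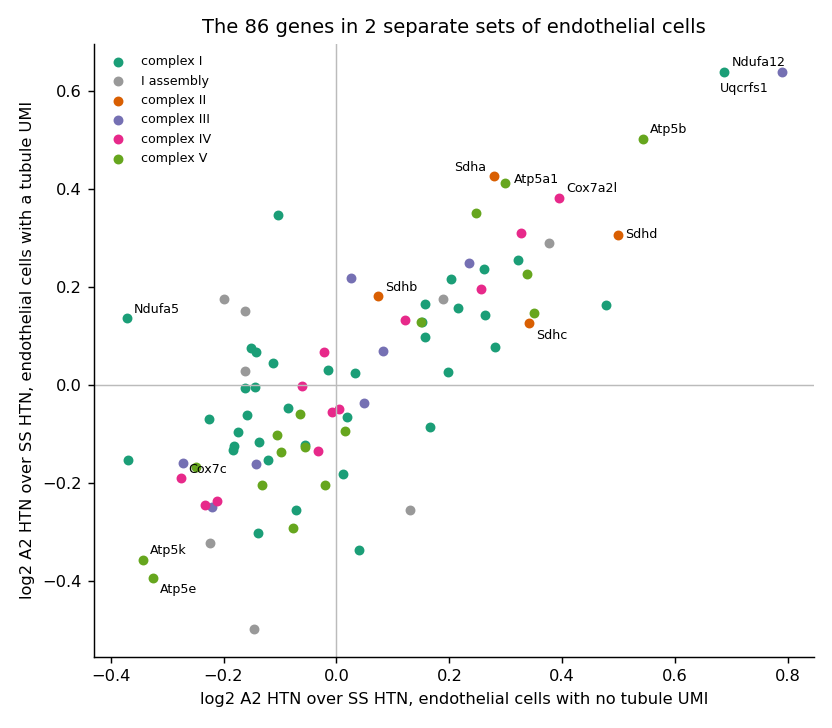
Each point is 1 of the 86 genes, coloured by complex, with its log2 ratio of A2 HTN over SS HTN in endothelial cells without (horizontal axis) and with (vertical axis) a tubule UMI. Ndufa12, Uqcrfs1 and Atp5b lie at the upper right and Atp5e and Atp5k at the lower left in both sets of cells.

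Over control, endothelial cells with a tubule UMI gave a summed log2 ratio of −0.19 (−0.24 to −0.14) for A2 HTN and −0.16 (−0.21 to −0.12) for SS HTN, with 60 of the 86 genes lower in each. The median of all genes tested was 0.0008 and −0.0020. Past 1.5 fold were 3 lower and 2 higher genes in A2 HTN (15.4% and 15.2% of all genes) and 6 and 2 in SS HTN (14.9% and 16% of all genes). A2 HTN over SS HTN had 0 lower and 2 higher, where 8.04% and 5% of all genes were. These ratios over control turn with the control library. Over control library 2 alone they were −0.28 and −0.25, and over the 14 cells of control library 1 they were 0.53 and 0.56. Without the 5% of cells with most UMIs they were 0.051 and 0.061. Those 14 cells were at 13251 CPM for the 86 genes, with 3534 CPM of Neat1, a nuclear RNA, and 57115 CPM of ribosomal protein genes, against 23283, 467 and 109412 CPM in control library 2. Whether these values have a part in the difference was not tested.

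A tubule UMI in an endothelial cell went with little change in these genes. Cells with one over cells without gave −0.06 (−0.08 to −0.05) in A2 HTN, −0.05 (−0.07 to −0.03) in SS HTN and 0.05 (−0.01 to 0.12) in control library 2. In control library 1 the value was −0.51 (−0.79 to −0.23), on 14 and 5 cells. Below 0 were 67 of the 86 genes in A2 HTN and 60 in SS HTN, and 21 genes were below 0 in both of these and in control library 2. The median of all genes tested was 0.02 in A2 HTN and 0.03 in SS HTN. For all genes under 5 kb it was −0.05 and −0.07, against −0.07 and −0.05 for the 25 oxidative phosphorylation genes of that span. These counts thus cannot be read as particular to the 86 genes.

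Other cells had a lower level than endothelial cells, and the complexes differed widely in how much lower. The class mixes cell types, so its makeup and the level in any one type cannot be told apart. The 86 genes summed to 10127 CPM in A2 HTN, 10070 in SS HTN, 7698 in control library 1 and 10015 in control library 2. Against endothelial cells without a tubule UMI of the same library the log2 ratio was −0.98 (−1.01 to −0.96), −1.01 (−1.03 to −0.98), −1.29 (−1.52 to −1.06) and −1.16 (−1.21 to −1.11). The median gene was at −1.08 in A2 HTN, −0.97 in SS HTN and −1.27 in the summed control, where the median of all genes tested was 0.30, 0.28 and 0.43. The control value depends on the scaling, since with size factors from the 2164 genes that could be used the summed ratio was −0.12 in control, with 27 genes lower and 22 higher by 1.5 fold or more, against −1.13 in A2 HTN and −1.04 in SS HTN. With total UMIs as the scale, 59 genes were lower by 1.5 fold or more in A2 HTN, 53 in SS HTN and 65 in the summed control. The shares over all genes were 26.4%, 24.7% and 27.1%. Higher were 5, 4 and 7, against 41.5%, 40.6% and 46.2%. With scaling to total UMIs the same 52 genes were lower in all 3. The share of all genes lower in all 3 was not computed. With every cell thinned to 1000 UMIs and shallower cells left out, the summed ratio was −0.57 in both A2 HTN and SS HTN.

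Complex IV stood lowest, with all 12 genes lower by 1.5 fold or more in A2 HTN, SS HTN and the summed control, and sums of −1.42 in A2 HTN, −1.43 in SS HTN and −1.55 in control library 2 alone. Ndufa4 was at 189 CPM in other cells of A2 HTN, 194 in SS HTN, 113 in control library 1 and 184 in control library 2, against 661, 676, 360 and 795 CPM in endothelial cells. In the same order complex I gave −0.96, −0.98 and −1.21, complex V −0.90, −0.91 and −0.99, and complex III −0.60, −0.70 and −0.89. Complex II gave −0.25 (−0.40 to −0.12), −0.04 (−0.19 to 0.12) and −0.40 (−0.74 to −0.06), and the assembly factors −0.13 (−0.30 to 0.04), −0.19 (−0.37 to −0.02) and −0.29 (−0.73 to 0.16). Complex II and the assembly factors thus stood nearest to 0 in all 3 libraries. Within complex II the anchor Sdhd, at −1.45 in A2 HTN and −1.13 in SS HTN, was apart from Sdha (−0.30 and 0.26), Sdhb (0.12 and −0.07) and Sdhc (0.05 and 0.14). Sdhd is also the shortest, at 7456 bases against 28027, 17991 and 23439, and the part of span was not tested.

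**Figure D3:**
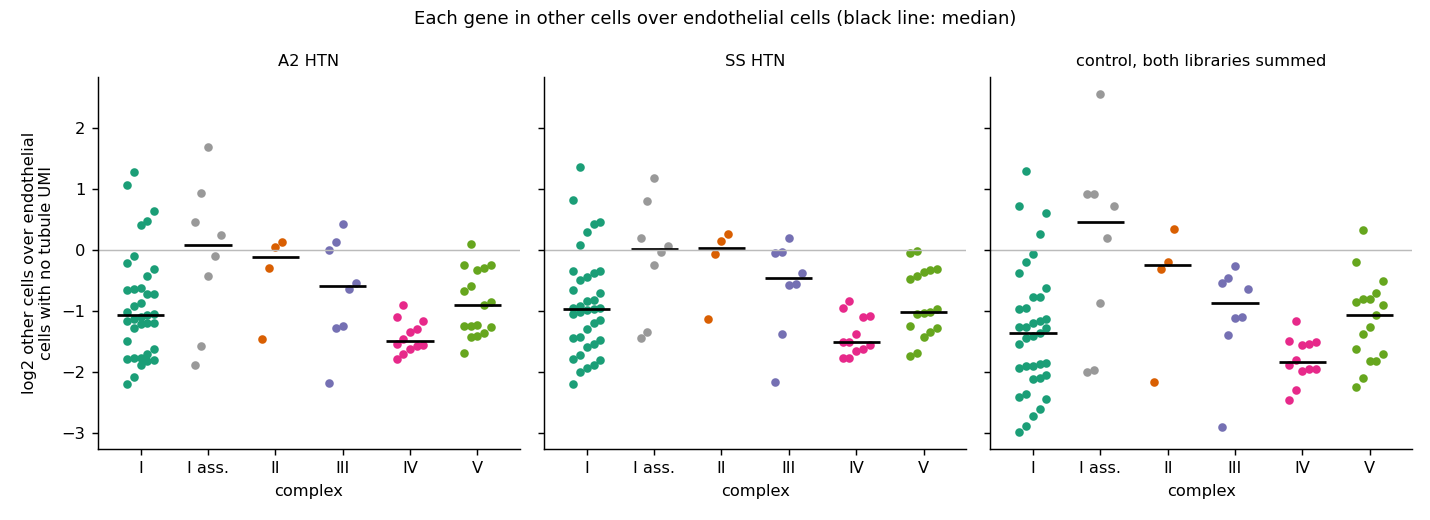
Log2 ratio of other cells over endothelial cells without a tubule UMI (vertical axis) for each gene with 20 or more UMIs, by complex (horizontal axis; "I ass." are the assembly factors), in A2 HTN, SS HTN and the summed control. Black lines are medians, and all 12 complex IV genes lie below 0 in each panel while complex II and the assembly factors straddle it.

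Within complex I the sums of the core subunits, which carry the redox centres, and of the accessory ones differed. This split was made from textbook roles after the values had been seen, and single genes cross it. The 7 nuclear core genes summed to −0.02 (−0.12 to 0.08) in A2 HTN, 0.01 (−0.09 to 0.12) in SS HTN and −0.19 (−0.43 to 0.05) in the summed control. The other 30 summed to −1.14 (−1.18 to −1.09), −1.15 (−1.20 to −1.11) and −1.67 (−1.76 to −1.59). The core gene Ndufs8 was at −1.10, −0.83 and −0.98, within the range of the accessory genes, and the accessory gene Ndufa10 at 1.07, 0.46 and 0.60. Ndufs8 spans 3912 bases and Ndufa10 34851 bases. The part of span in the split between core and accessory genes was not tested. Ndufs1, the largest core subunit, was at 98.9 CPM in other cells of A2 HTN, 114 in SS HTN, 112 in control library 1 and 108 in control library 2, against 37.9, 41.3 and 43.8 CPM in endothelial cells of A2 HTN, SS HTN and control library 2 and no UMI in the 5 of control library 1. Its ratio was 1.28 in A2 HTN and 1.36 in SS HTN, and every library with more than 5 endothelial cells had the higher level in other cells. Ndufs5, an accessory subunit, was at 24.2, 26.6, 16.4 and 16.8 CPM in other cells against 128, 140, 240 and 132 CPM in endothelial cells, ratios of −2.19 and −2.20 in A2 HTN and SS HTN. Higher by 1.5 fold or more in other cells of A2 HTN, SS HTN and the summed control were 4 genes. These were Ndufs1, Ndufv1, Ndufaf5 and Ndufaf6, and the joint share over all genes was not computed. They span 33238, 5423, 33041 and 25161 bases. In complex III Uqcrb was at −2.17 and −2.16 in A2 HTN and SS HTN, and Uqcrc1, a core protein, at 0.42 and 0.20.

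Length and nuclear RNA moved with this contrast. Genes over 50 kb held 31.6% to 33.7% of UMIs in endothelial cells without a tubule UMI of A2 HTN, SS HTN and control library 2, and 52.6% to 58.4% in other cells of the 4 libraries. Neat1 was at 241 to 373 CPM in those endothelial cells and at 2982 to 4703 CPM in other cells. The 86 genes are short, with a median span of 7760 bases against 28388 for all listed genes (85 of 86 and 10973 of 11049 symbols matched in GENCODE vM21). By span, their median ratio in A2 HTN was −1.17 under 5 kb, −1.24 from 5 to 10 kb, −1.07 from 10 to 20 kb and −0.18 over 20 kb, where all genes had −0.995, −0.42, −0.07 and 0.64. These span classes held 25, 31, 15 and 14 of the genes. Their median was below that of all genes in each class, and nearest to it under 5 kb. The part of these values in the result was not tested.

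Among other cells the level was also lower in those with more tubule UMIs. In other cells of A2 HTN it was 23364 CPM with no tubule UMI, 15326 with 1, 9617 with 2 to 4 and 8676 with 5 or more. In SS HTN it was 21519, 18190, 11344 and 8148 CPM, and in control library 2 18873, 13685, 9694 and 8419 CPM. Other cells without a tubule UMI thus stood near endothelial cells of these 3 libraries. The 4 endothelial genes were not summed by tubule UMIs, so how many endothelial cells this group held was not tested. Control library 1 went from 34255 CPM in 20 cells to 7398 CPM. Endothelial cells of A2 HTN were at 20034, 19504, 19160 and 13761 CPM, the last from 35 cells, and those of SS HTN at 20237.5, 20228.5, 18832 and 16181 CPM. In control library 2 endothelial cells did not follow this order up to 4 tubule UMIs, with 22412, 24515, 22290 and 20695 CPM, the last from 5 cells. Neat1 was higher alongside in other cells, from 983 to 3190 CPM in A2 HTN and from 625 to 3692 CPM in SS HTN, and the share of UMIs in genes over 50 kb went from 30.7% to 56.5% and from 31.5% to 57.6%. In A2 HTN other cells with 5 or more tubule UMIs had a median of 1172 UMIs against 625 in those with none, while such endothelial cells had 2380 against 4748. The part of depth and of nuclear RNA in this was not tested.

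**Figure D4:**
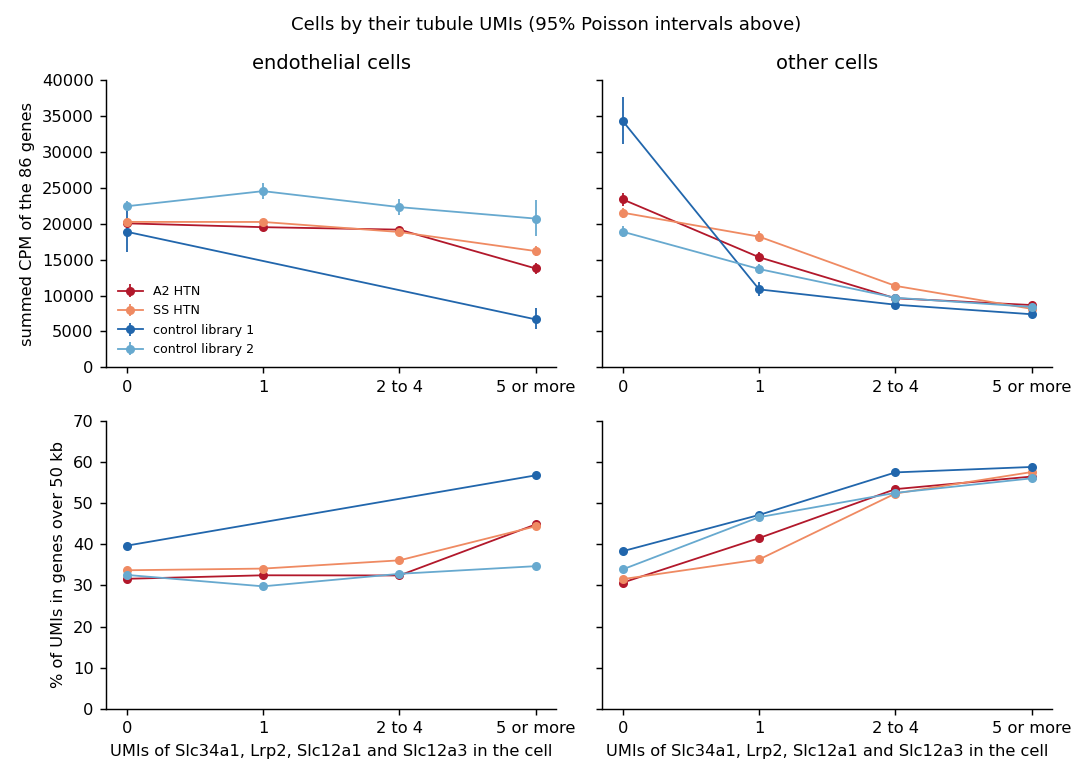
Summed CPM of the 86 genes (upper panels, with 95% Poisson intervals) and percent of UMIs in genes over 50 kb (lower panels) for cells grouped by their UMIs of 4 tubule genes (horizontal axis), with 1 line per library and groups under 5 cells left out. In other cells of A2 HTN the level goes from 23364 to 8676 CPM while the long-gene share goes from 30.7% to 56.5%.

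A handful of other cells carried far more of these genes than the rest. The median other cell had 84.2 UMIs of the 86 genes per 10000 in A2 HTN, 85.7 in SS HTN, 61.4 in control library 1 and 77.5 in control library 2. More than 500 per 10000, a limit chosen after the values were seen, were found in 2 of 1612, 4 of 1765, 17 of 2387 and 12 of 1882 other cells. The highest single cells had 14.5%, 12.2%, 19.3% and 15.9% of their UMIs in these 86 genes. In control library 1 the 17 cells, 0.712% of other cells, held 14.3% of all UMIs of the 86 genes in that class. Of these 17, 13 had a tubule UMI, and together they held 317 UMIs of Fxyd2, a regulatory subunit of the sodium pump in tubules, or 13407 CPM against 1480 CPM over the whole class. In control library 2 the 12 cells held 7.05%, and in the hypertension libraries such cells held 0.961% and 1.43%. Their part in comparisons of sums is given next.

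Between libraries, other cells of both models were above control. The sum gave 0.26 (0.23 to 0.28) for A2 HTN and 0.25 (0.23 to 0.27) for SS HTN over the summed control, with 70 and 66 of the 86 genes higher. The median of all genes tested was −0.01 and −0.03. Under 5 kb it was 0.28 and 0.24, against 0.37 and 0.42 for the 25 oxidative phosphorylation genes of that span. With cells thinned to 1000 UMIs and shallower ones left out, the values were 0.64 and 0.66. Past 1.5 fold were 0 lower and 5 higher genes in A2 HTN (4.16% and 8.38% of all genes) and 0 lower and 7 higher in SS HTN (1.77% and 7% of all genes). A2 HTN over SS HTN gave 0.01 (−0.02 to 0.04), with 1 gene lower and 0 higher (2.74% and 3.01% of all genes). The difference from control rests on control library 1. Over that library alone it was 0.40 and 0.39, and over control library 2 alone 0.02 and 0.01. The control libraries differed from each other by −0.38 (−0.41 to −0.35), library 1 over library 2, with 74 of 86 genes lower in library 1. The median of all genes tested there was 0.03. Under 5 kb it was −0.42, against −0.48 for the 25 oxidative phosphorylation genes of that span. Without the cells above 500 per 10000 the ratios over the summed control were 0.41 and 0.39, and over control library 2 they were 0.10 and 0.08. This cut was made on the same 86 genes. It took 14.3% and 7.05% of their UMIs from control libraries 1 and 2, against 0.961% and 1.43% from A2 HTN and SS HTN. The rise over control thus follows from the cut itself. Ribosomal protein genes in other cells were at 11814 CPM in control library 1 and 38192 CPM in control library 2, with 29886 and 33361 CPM in A2 HTN and SS HTN. The 4 genes used to call endothelial cells summed to 397 CPM in other cells of A2 HTN and 434 CPM in SS HTN. In control libraries 1 and 2 they summed to 190 and 200 CPM. The part of the ribosomal and of these endothelial genes in the difference from control was not tested.

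The 3 genes of the c-subunit of ATP synthase differed between cell classes in their shares. Atp5g1, Atp5g2 and Atp5g3 encode the same mature ring protein with different import sequences, and the counts of such related genes are uncertain where reads match more than 1 of them. In endothelial cells without a tubule UMI Atp5g2 made up 46.9% of the UMIs of the 3 genes in A2 HTN (exact binomial 95% interval 44.7 to 49.0), 50.4% in SS HTN (47.8 to 53.0) and 49.3% in control library 2 (41.0 to 57.7). In other cells it made up 31.7% (28.2 to 35.3), 32.5% (29.5 to 35.7) and 29.7% (25.9 to 33.8), and 27.8% (24.7 to 31.1) in control library 1. Atp5g1 had 27.1%, 24.8% and 31.5% in endothelial cells and 42.1%, 41.1%, 37.9% and 48.1% in other cells, in the same order of libraries. Atp5g2 thus led in endothelial and Atp5g1 in other cells in all libraries with enough counts. The point values of these 2 genes did not overlap between the classes. The control library 2 intervals of Atp5g1 did, at 24.1 to 39.7 in endothelial and 33.8 to 42.2 in other cells. In endothelial cells with a tubule UMI Atp5g2 had 47.8% in A2 HTN, 46.4% in SS HTN and 40.3% (31.6 to 49.5) in control library 2. A share within 3 genes needs no scaling to library size.

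**Figure D5:**
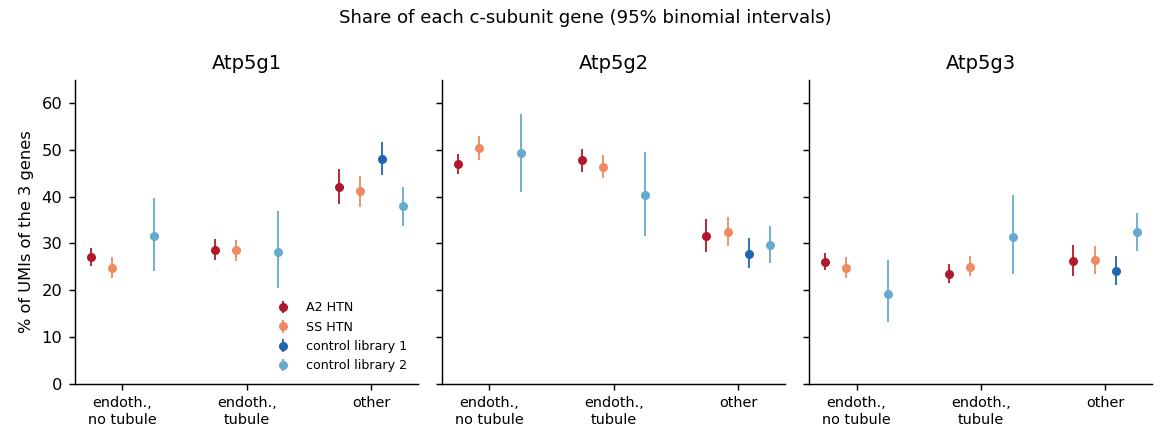
Percent of the UMIs of Atp5g1, Atp5g2 and Atp5g3 that each gene holds (vertical axis) in the 3 cell classes (horizontal axis), with 1 point per library and 95% exact binomial intervals. Control library 1 is drawn for other cells only, since its endothelial cells held 8 and 15 such UMIs, and Atp5g2 goes from 46.9% to 50.4% in endothelial cells without a tubule UMI down to 27.8% to 32.5% in other cells.

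Other mitochondrial lists, chosen by function, did not all follow the 86 genes. In other over endothelial cells, the 77 mitochondrial ribosomal protein genes had a median log2 ratio of −0.83 in A2 HTN (52 lower and 6 higher by 1.5 fold or more, where 26.4% and 41.5% of all genes were) and −0.80 in SS HTN (48 and 6, where 24.7% and 40.6% were). The 6 carriers and porins, which move ADP, ATP, phosphate and metabolites across the membranes, were at −1.46 and −1.07. The 13 genes of the tricarboxylic acid cycle were at 0.34 in A2 HTN, 0.48 in SS HTN and 0.40 in the summed control, near the all-gene medians of 0.30, 0.28 and 0.43, and 2 were lower and 5 higher by 1.5 fold or more in A2 HTN, where the shares over all genes are those just given. The 35 listed factors of assembly and regulation outside the naming rule were at −0.28 and −0.10, and Cyc1 and Cycs, the genes of cytochrome c1 and cytochrome c, had a median of −0.73 and −0.75. The 11 regulators of mitochondrial biogenesis, among them Ppargc1a and Tfam, were at 1.44 and 0.67. Enzymes of the cycle and subunits of the chain thus had medians on opposite sides of 0 in the same cells. Between the models, in endothelial cells without a tubule UMI, all 6 carriers and porins were higher in A2 HTN than in SS HTN, with a median of 0.43 and 1 past 1.5 fold, while the mitochondrial ribosome was at 0.07, the cycle at 0.12, the factors of assembly and regulation at −0.03, the regulators of biogenesis at −0.20, and Cyc1 and Cycs at 0.16. In endothelial cells with a tubule UMI 5 of these 6 were higher in A2 HTN, with a median of 0.42. Over control their direction in A2 HTN differed between the sets of cells, with a median of 0.37 and 6 of 6 higher without a tubule UMI and −0.20 and 6 of 6 lower with one. In SS HTN over control the medians were −0.11, with 5 of 6 lower, and −0.55, with 6 of 6 lower.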

How the data were processed

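Droplet 3′ single-cell RNA-seq (Chromium V3.1) gave UMI counts per gene and cell. The counts were deposited by the authors as 3 tables used here and a joined hypertension table used as an alternative. Per the submitters' processing notes they come from Cell Ranger 7.0.0 and Seurat 4.1 with mm10, and their cell and gene filters are not given in the sources used here. The tables hold whole numbers, and no further normalization of them was found. The control table holds 2 libraries, told apart by their barcode endings and not tied to a model.

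UMIs were summed over the cells of a class in each library, with doublets not removed, and scaled to CPM over the 11049 genes listed in all 3 tables, which hold 98.7% to 99.2% of the UMIs. A log2 ratio, of a gene or of a sum, is log2((CPM + 5)/(CPM + 5)), which understates differences of low genes and moves sums little. Its interval is that of the plain ratio. Intervals are exact conditional binomial (ratios), exact Poisson (levels) or Clopper-Pearson (shares) at 95% and cover counting error only, not variation between mice. With 1 library a group no test over samples could be made. Genes with 20 or more UMIs in the sums compared were counted, and called past 1.5 fold. The interval code was tested on simulated data.

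Named genes were, per complex, the pair with most CPM, those with the highest and lowest ratio in each of the 3 endothelial comparisons, the complex II genes and sets of related genes, of which the 3 Atp5g genes are described. Genes outside this rule were chosen after their values were seen. The members, lists and alternatives were chosen with earlier results of these data known. Further settings tried were size factors, equal weight per cell, a pseudocount of 1, no minimum count, 16 tubule genes, 5 endothelial UMIs, thinning to 1000 UMIs, the joined table, dropping the deepest 5% of cells, and each control library left out. Python 3.11.15, numpy 2.4.6, scipy 1.17.1 and pandas 2.3.3 were used. Gene positions are GENCODE vM21 on GRCm38.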

Additional observations from a re-analysis of the deposited data

How the results depend on the processing

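All values here are log2 ratios of summed UMIs of the 86 genes unless a gene is named, and the cause of each change was not tested. Of the alternatives to these sums, 115 stayed within the main value's interval or, over control, within the spread of the control libraries, 29 moved further and 7 changed sign. The minimum count cannot move a sum and the pseudocount hardly can, so those settings, counted among the 115, say nothing of stability. With size factors A2 HTN over SS HTN was −0.0037 in endothelial cells with a tubule UMI, and other over endothelial cells was −1.13 in A2 HTN, −1.04 in SS HTN and −0.12 in control, where only 2164 genes could set the factor against 8822 and 8686. With equal weight per cell A2 HTN over SS HTN was 0.0046 in endothelial cells without a tubule UMI and −0.056 in other cells, endothelial cells with over without a tubule UMI gave −0.094 in A2 HTN, and other over endothelial cells −1.04 and −0.98. With 16 tubule genes Sdhd in SS HTN over control was 0.053, A2 HTN over SS HTN without a tubule UMI 0.0051, and with over without −0.046 in A2 HTN and −0.021 in SS HTN. With 5 endothelial UMIs A2 HTN over SS HTN in other cells was −0.11 and other over endothelial cells −0.91 and −0.82. With cells thinned to 1000 UMIs Ndufaf3 in A2 HTN over SS HTN was −0.053, A2 HTN over SS HTN was 0.034 in endothelial cells with a tubule UMI and −0.021 in other cells, other cells over control were 0.64 and 0.66, with over without a tubule UMI was −0.020 and −0.074, and other over endothelial cells −0.57 and −0.57. With the joined table A2 HTN over SS HTN was −0.041 without a tubule UMI and 0.076 in other cells, with over without −0.037 in A2 HTN, and other over endothelial cells −0.90. Without the deepest 5% of cells, endothelial cells with a tubule UMI over control were 0.051 in A2 HTN and 0.061 in SS HTN.

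Leaving out each control library in turn gave −0.16 to 0.087 for A2 HTN and −0.15 to 0.10 for SS HTN over control in endothelial cells without a tubule UMI, −0.28 to 0.53 and −0.25 to 0.56 in those with one, and 0.016 to 0.40 and 0.0078 to 0.39 in other cells. It gave −0.51 to 0.055 for endothelial cells with over without a tubule UMI in control and −1.29 to −1.16 for other over endothelial cells in control. By gene it gave −0.48 to 0.36 for Uqcr11 in A2 HTN over control, −0.62 to 0.59 for Atp5c1 and −0.91 to 3.21 for Uqcrfs1 in SS HTN over control. No paired analysis was possible because each group is 1 library. The control endothelial values are limited by their 73 cells without a tubule UMI.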
